A study of Rattus norvegicus with 25 samples.

Results

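The normal esophagus of the rat was profiled in 5 untreated animals, Control rats 1 to 5, out of 25 rats in the series. These 5 arrays were taken by their sample titles. All were male F344 rats fed a normal diet and given no NMBA (N-nitrosomethylbenzylamine, a nitrosamine that causes esophageal tumours in rats). Their age is not stated in the sources used here. The tissue is labelled as the epithelium of the esophagus, and each array holds total RNA from 1 rat, amplified linearly, labelled with the dye Cy3 and hybridised to a 1-colour Agilent rat gene expression array. The other 20 rats of the series received NMBA, alone or with alpha-, delta- or gamma-enriched tocopherol, and were not used here.

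The esophagus is lined by a stratified squamous epithelium. Basal cells that express KRT5, KRT14, KRT15, p63 and SOX2 divide along the basement membrane, and their daughters move upward, switch to KRT4 and KRT13, and build a cornified envelope from small proline-rich proteins, involucrin and other precursors that transglutaminases crosslink. Beneath the epithelium lie a connective tissue layer with vessels and immune cells, a smooth muscle layer and an outer muscle coat, which in rats is largely striated.

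A level is given as the log2 processed signal minus the 75th percentile of the array, so a level of 0 is the signal that 75% of the array's spots stay below, and 1 unit is a 2-fold difference. Brightness also depends on the probe, so a rank orders genes by signal and is only a rough order of their transcripts. A gene with several probes took its brightest one. Of 1719 genes with more than 1 probe above background in all rats, 40.3% had probes more than 2 log2 units apart, which limits how far a rank can be read.

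The 5 arrays were of similar quality. Between 74.4% and 76.1% of spots were well above background, no spot was saturated (0 on every array), and the 75th percentile signal ran from 4854 to 6554 fluorescence units, highest in rat 1. Rats 2 to 5 shared 1 slide and rat 1 was on another, so anything particular to rat 1 and an effect of its slide cannot be told apart. Across genes, Pearson's r between pairs of rats ran from 0.968 (rats 1 and 2) to 0.993 (rats 4 and 5). These correlations are over genes, which are not independent replicates. The pairs with rat 1 had r between 0.968 and 0.975. Rat 1 also read lower in most bright genes, which depended on the scaling in some lists and not in others. The mean deviation of cornified envelope genes in rat 1 from the mean of all rats was −0.28 and became 0.04 after quantile normalization, whereas that of skeletal muscle markers was −1.12 and became −0.96.

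Most genes that the array can name were detected in normal esophagus. Of 15436 genes, 11117 (72%) were well above background in all 5 rats, 1439 (9.32%) in 1 to 4 rats and 2880 (18.7%) in none. Counts of list members detected in all rats, here and below, are to be read against this 72%. Detection differed widely between gene families. All 73 ribosomal protein genes and all 18 proteasome subunits Psma and Psmb were above background in every rat, whereas only 62 of 1094 olfactory receptors (5.67%) were. Taste receptors were detected in every rat in 5 of 34 cases, and beta-defensins in 13 of 37. Cytochromes P450, which oxidise drugs and carcinogens, lay between these with 31 of 69 (44.9%), and solute carriers stood at 220 of 330 (66.7%). Glutathione transferases were detected in 20 of 23 cases and keratins in 30 of 45.

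Genes of distant organs were largely at background. Of 20 liver genes on the array, 10 were above background in none of the rats, among them Alb, and 4 were above background in all 5. Of 19 brain and retina genes, 8 were detected in no rat and 5 in all, the brightest of them Pde6a at −4.46 ± 0.38 (SD, n = 5). Of 15 pancreas genes, 7 were detected in all rats, with a median level of −5.42 and 1 bright exception, the carboxypeptidase gene Cpa1 at 0.59 ± 0.47. Of 16 germ cell genes, 4 were detected in all rats, and Prm1, the sperm protamine, was bright at 2.86 ± 0.26 with a single probe.

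**Figure D1:**
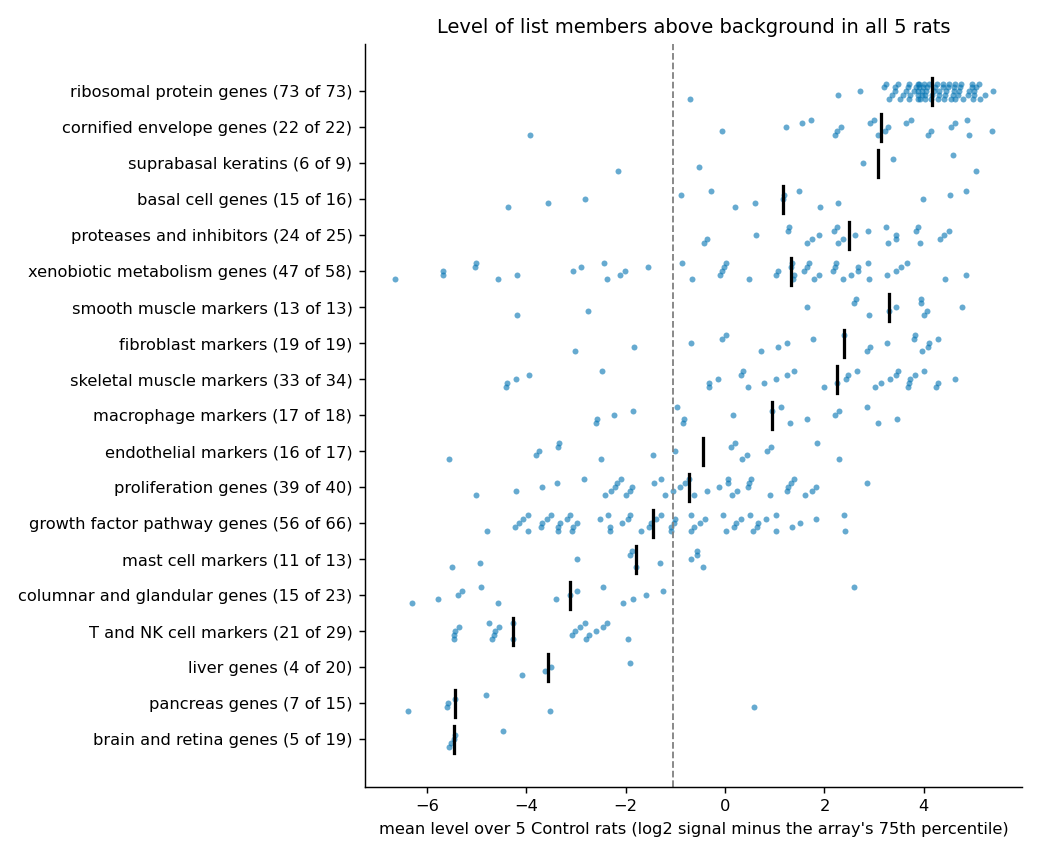
Mean level over the 5 Control rats (horizontal axis, log2 signal minus the array's 75th percentile) of every member of 19 gene lists that was above background in all 5 rats; numbers in brackets give these members out of those on the array. Each point is 1 gene, the short bar is the list's median and the dashed line is the median of all genes (−1.04). Ribosomal protein genes (median 4.16), smooth muscle markers (3.31), cornified envelope genes (3.15) and suprabasal keratins (3.08) lie far to the right, and pancreas, brain and retina genes (−5.42 and −5.44) far to the left.

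The brightest signals came from the squamous differentiation programme and the translation machinery. Of the 25 named genes with the highest mean signal, 12 were ribosomal protein genes, led by Rplp0 at 5.38 ± 0.56 (rank 5 of 11109). Sprr3, a small proline-rich precursor of the cornified envelope, ranked 6 at 5.37 ± 0.59. Its level was 4.35 in rat 1, 5.72 in rat 2, 5.77 in rat 3, 5.62 in rat 4 and 5.39 in rat 5, so rat 1 lay below the other 4, which differed little. Fabp5, the epidermal fatty acid binding protein, ranked 3 at 5.49 ± 0.67, and Krt13, the keratin of the differentiated layers, ranked 13 at 5.05 ± 0.37. Dmkn and Sbsn, secreted proteins of differentiated keratinocytes, ranked 22 (4.92 ± 0.49) and 25 (4.88 ± 0.49). The small heat shock gene Hspb1 ranked 21 (4.93 ± 0.46) and S100a7l2, of the S100 family, ranked 20 (4.97 ± 0.27). Tpt1 ranked 7 (5.27 ± 0.49), the adenosine deaminase gene Ada ranked 9 (5.22 ± 0.38) and the ubiquitin gene Ubb ranked 10 (5.20 ± 0.39).

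Some ranks rested on a single probe or on probes that disagreed. Igsf21 had the highest signal of all genes (5.62 ± 0.25), but its other probe was not above background on all arrays. Spag7 ranked 4 (5.42 ± 0.41) with 1 probe on 1 spot. Fam25a ranked 2 (5.55 ± 0.65), with a dimmer probe at 4.58. The 3 probes of Tpt1 reached down to 1.53 and those of Rpl28 to −5.03.

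Basal cell genes were detected almost completely. Of 16 on the array, 15 were above background in all 5 rats, 4 of them among the brightest 10% of genes (a class that holds 10% of all 11109 genes by construction), and the median level was 1.17. Krt15 was brightest at 4.35, 4.90, 5.01, 5.05 and 4.97 in rats 1 to 5 (4.85 ± 0.29). Krt14 followed at 4.0, 4.44, 4.68, 4.93 and 4.54 (4.52 ± 0.34). Rat 1 was the lowest in both, and the ranges of the 2 genes overlapped.

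Krt5, the type II partner of Krt14 in basal cells, gave a far lower signal, 1.51, 1.12, 1.38, 1.75 and 1.68 in rats 1 to 5 (1.49 ± 0.25, rank 1755). Each of these keratins had 1 probe, so their difference in signal cannot be read as a difference in transcripts. Tp63, which encodes p63, the factor that maintains the basal layer, ranked 129 at 3.98 ± 0.19. Sox2 ranked 1283 at 1.91 ± 0.15, and the hemidesmosome integrin Itgb4 ranked 951 at 2.27 ± 0.27. Of the genes that anchor basal cells to the basement membrane, Itga6 was dim at −4.38 ± 0.17. The median SD over rats was 0.29, against 0.26 for all genes, and the member that varied most was Igfbp3, with an SD of 0.53. An SD above 1 was found in 0 of the 15, where 1.75% of all genes had one (194 of 11109).

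Keratins of the layers above were also bright. Krt13 stood at 4.42, 5.15, 5.28, 5.30 and 5.11 in rats 1 to 5, and rat 1 was 0.69 below the next rat. Krt4, its type II partner, stood at 4.03, 4.80, 4.71, 4.95 and 4.44 (4.58 ± 0.36, rank 51). Krt17 was nearly the same in every rat (3.38 ± 0.08, rank 284), and Krt23 ranked 590 (2.78 ± 0.13). Krt16, a keratin of activated and hyperproliferative epithelium, was above background in 4 rats, and Krt84, a hard keratin, in none (0 rats). Krt80 was dim (−2.16 ± 0.45), and Krt36 varied most in this list (SD 0.74). No probe could be named for Krt6a, Krt10, Flg and the loricrin gene.

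Keratins of the epidermis were dimmer, and 1 of them varied strongly. Krt1, the suprabasal keratin of skin, stood at −0.78 in rat 1, −0.70 in rat 2, −0.22 in rat 3, 1.24 in rat 4 and 2.07 in rat 5. Rats 4 and 5 were both above the other 3, and the range was 7.19-fold. Krt2 (−2.60 ± 0.33) and Casp14 (−1.17 ± 0.40) were lower, and Krt77 was above background in none of the rats. The late cornified envelope genes Lce1m and Lce1f were bright at 4.15 ± 0.26 and 3.51 ± 0.21.

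Cornified envelope genes had the highest median level of the epithelial lists, 3.15. All 22 on the array were above background in every rat, 17 of them were among the brightest 10% of genes, and the median SD over rats was 0.23, against 0.26 for all genes. After Sprr3, Dmkn and Sbsn came Cnfn (cornifelin, 4.62 ± 0.36) and Sprr1a (4.54 ± 0.44). The crosslinking enzymes Tgm1 and Tgm3 had levels of 3.29 ± 0.20 and 3.22 ± 0.21. Involucrin, encoded by Ivl, had a lower signal (−0.07 ± 0.38, rank 4022), and the ammonium transporter Rhcg was the dimmest and most variable of the list (−3.92 ± 0.74).

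Adhesion genes spanned the whole range of signal. Among desmosome genes, which rivet keratinocytes together, Perp (4.73 ± 0.48) and the plakoglobin gene Jup (3.62 ± 0.09) were bright, while the cadherins Dsg3 (−1.48 ± 0.43) and Dsc2 (−2.21 ± 0.50) were not, and Dsg4 was above background in no rat (0 of 5). Pkp2 had the widest spread of the list (SD 0.57). Of 24 adherens and tight junction genes, 23 were detected in all rats. The connexins Gjb2 (3.14 ± 0.18) and Gja1 (2.88 ± 0.28) and the claudin Cldn4 (2.41 ± 0.24) led them, E-cadherin (Cdh1) stood at 1.52 ± 0.16, and Cldn7 varied most (SD 0.71).

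Of 25 proteases and protease inhibitors, which control shedding of the surface layer, 24 were detected in all rats and 16 were among the brightest 10%. Slpi, a secreted inhibitor of leukocyte elastase, led with 4.51 ± 0.34, followed by the cystatin Cst6 (4.40 ± 0.49), cathepsins Ctsd (4.33 ± 0.40) and Ctsl (3.93 ± 0.27), and the kallikrein Klk8 (3.88 ± 0.22). Spink7 varied most, with an SD of 0.65. Among 29 barrier lipid genes, 25 were detected in all rats and 10 were among the brightest 10%, led after Fabp5 by Hmgcs1 of sterol synthesis (3.54 ± 0.20), Elovl1 (3.40 ± 0.19) and Dgat2 (3.15 ± 0.40). Fabp5 also had the widest spread of the list (SD 0.67).

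Defence and secreted genes were partly bright and partly variable. Of 36 on the array, 33 were above background in all rats and 14 were among the brightest 10%, led by the calcium-binding S100a11 (4.20 ± 0.32), Lypd3 (4.0 ± 0.27) and Pigr (3.69 ± 0.18), which carries antibodies across epithelia. With all rats, 6 genes of this list had an SD above 1 (1.75% of all genes did), and 3 had one without rat 2. Rat 2 was the lowest in 12 of the 33. Among the full set of 11109 genes, 1948 had their lowest level in rat 2.

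Of 39 transcription factors of squamous and other epithelia, 34 were detected in all rats. The brightest after Tp63 were Hopx (3.80 ± 0.27), Pitx1 (3.67 ± 0.17), Klf4 (2.58 ± 0.06) and Nfe2l2 (2.30 ± 0.25), the regulator of antioxidant genes. Gata4 and Gata6, factors of glandular gut epithelium, were above background in none of the rats. Cdx2, a gut factor on the same list, was above background in every rat, at a mean level of −2.05. Elf3, an epithelial factor, varied most, at −0.04, −0.70, 1.83, 0.30 and 1.15 in rats 1 to 5 (SD 1.0), lowest in rat 2 and highest in rat 3.

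Enzymes that handle xenobiotics were abundant in signal but selective. Of 58 on the array, 47 were detected in all rats (72% of all genes were), 15 were among the brightest 10%, and the median level was 1.32. Cyp2f4 was brightest at 4.23, 5.08, 5.08, 5.06 and 4.82 in rats 1 to 5 (4.85 ± 0.36, rank 27). Aldh3a1, an aldehyde dehydrogenase of stratified epithelia, had 4.42 ± 0.45 (rank 67), Gsta4 had 3.67 ± 0.21 and Aldh1a1 had 3.54 ± 0.28. Nqo1 ranked 337 (3.25 ± 0.18) and Gstp1 ranked 528 (2.88 ± 0.19).

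The P450 enzymes best known for activating nitrosamines were dim. Cyp2a3 had −4.18, −4.86, −4.07, −4.56 and −5.16 in rats 1 to 5, which is rank 9904 of 11109, and Cyp2e1 was above background in none of the rats. Mgmt, which repairs alkylated guanine in DNA, ranked 4088 at −0.11 ± 0.12. Cyp1a1 was at −1.54 ± 0.22. The epoxide hydrolase Ephx1 varied most, with an SD of 0.62, and none of the 47 had an SD above 1 (0 of 47, against 1.75% of all genes).

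Of 41 antioxidant and vitamin E genes, 38 were detected in all rats and 12 were among the brightest 10%. The peroxiredoxin Prdx2 (4.25 ± 0.29), thioredoxin Txn1 (4.02 ± 0.21), superoxide dismutase Sod1 (3.77 ± 0.41) and the glutathione peroxidases Gpx2 (3.63 ± 0.27) and Gpx4 (3.45 ± 0.30) led the list. Ttpa, the tocopherol transfer protein of liver, was dim at −5.09 ± 0.49, and Gclm had the same SD, 0.49. The inflammatory enzymes Ptgs2 and Nos2 were above background in 0 rats and 1 rat. Among reference genes, Gapdh was at 4.51 ± 0.48 and Actb at 3.58 ± 0.26.

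Growth pathway genes had a lower median level (−1.44). Of 66, 56 were detected in all rats, and only 2 were among the brightest 10%: Wnt4 (2.41 ± 0.70) and Igf1 (2.40 ± 0.27). Bmp7 (1.84 ± 0.13), the Wnt co-receptor Lrp5 (1.51 ± 0.13) and Wnt10a (1.35 ± 0.18) followed. The receptor Egfr had −1.39 ± 0.29. Wnt4 also had the widest spread of the list, at 3.02, 1.75, 1.57, 2.97 and 2.74, with rats 2 and 3 below the others.

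Markers of some cell types outside the epithelium were bright, although the tissue is labelled as epithelium. Since these are bulk samples, fewer cells of a type and less RNA per cell cannot be told apart. All 13 smooth muscle markers were above background in every rat and 10 were among the brightest 10%, led by Actg2 (4.77 ± 0.48), Tpm1 (4.07 ± 0.59), Tpm2 (4.0 ± 0.26), Myl9 (3.95 ± 0.32) and Tagln (3.94 ± 0.23). All 19 fibroblast markers were detected too, led by the collagens Col3a1 (4.28 ± 0.34) and Col1a2 (4.10 ± 0.29), with Sparc (4.09 ± 0.28), Dcn (3.97 ± 0.32) and Mgp (3.82 ± 0.55). Fn1 had the widest spread among them (SD 0.67).

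Among immune markers those of macrophages were brightest. Of 18, 17 were detected in all rats (median level 0.94), led by the complement genes C1qa (3.46 ± 0.21), C1qc (3.07 ± 0.09) and C1qb (2.85 ± 0.17), with Lyve1 (2.30 ± 0.18) and Aif1 (2.22 ± 0.19). Of 21 Langerhans and dendritic cell markers, 17 were detected in all rats (72% of all genes were). Their median level was −1.50, below that of all genes. The brightest were the antigen presentation genes Cd74 (3.13 ± 0.20) and RT1-Db1 (2.58 ± 0.17). T and NK cell markers were dim, at a median level of −4.27, with Ptprc (CD45) highest at −1.95 ± 0.59 and Cd3g at −2.37 ± 0.58. Of 29, 21 were detected in all rats, near the share over all genes (72%). Of 9 B and plasma cell markers, 6 were detected in all rats, and the brightest, Sdc1 (3.19 ± 0.22), is also a syndecan of keratinocytes.

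Of 14 neutrophil markers, 5 were detected in all rats, and the granule genes Elane, Camp, Ltf, Mmp8, Mmp9 and Prtn3 were above background in none. Of 17 endothelial markers, 16 were detected in all rats (Lyve1 aside, Plvap was brightest at 1.85 ± 0.28). Of 21 nerve and glia markers 17 were, led by Pmp22 (1.95 ± 0.25), where 72% of all genes were. The median level of these 17 was −2.89. Haemoglobin genes were bright, with Hbb at 3.10 ± 0.24 and Hba-a1 at 2.65 ± 0.20. Other erythroid markers were dim, among them Ahsp (−3.73) and Alas2 (−4.34), and the median of the 6 was −0.54. Among 11 adipocyte markers, Cidea (2.88 ± 0.39) and Cfd (2.85 ± 0.42) led 7 that were detected in all rats. The median level of these 7 was −2.22, below that of all genes (−1.04).

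The spread between rats was small for most genes. The median SD over the 5 rats was 0.26 log2 units, a factor of 1.2, with quartiles of 0.18 and 0.37. It was larger for dim genes. In 10 equal classes of genes by signal, the median SD was 0.38 in the dimmest class and between 0.19 and 0.22 in each of the 4 brightest. Probes printed more than once on each array gave a median SD of 0.14 between spots of 1 array, and the SD between rats was 1.78 times as large by medians over 12092 probes. For 78.9% of these probes the SD between rats exceeded that between spots. The SD between rats is taken over averages of spots and the other over single spots, so their ratio is only a rough guide. With 1 array per rat, the SD between rats also holds differences between arrays and slides.

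The smallest SDs among the brightest 10% of genes were those of the elongation factor gene Tcea1, which stood at 2.30 ± 0.01, Ctbp2 (2.18 ± 0.04), Rnf39 (2.20 ± 0.04), Ddah2 (2.58 ± 0.04) and S100a6 (2.56 ± 0.05). They were picked as the smallest of many and lie below the median SD of 0.145 between spots of 1 array. So they do not show that these genes are steadier than others. The probe used for Tcea1 has 1 spot, and the dimmest of its 3 probes averaged −0.14. The 19 housekeeping genes had a median SD of 0.25, against 0.26 for all genes, and Rplp0 had an SD of 0.56.

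An SD above 1 was found for 194 of 11109 genes (1.75%), and these genes followed a few patterns over the rats. In 85 of the 194 the lowest rat was rat 1 and in 90 it was rat 2, although the lowest of all 11109 genes fell in rat 1 in 4090 cases and in rat 2 in 1948. The combination of rat 1 lowest and rat 4 highest held 72 of the 194 (37.1%), against 7.57% of all genes. The combination of rat 2 lowest and rat 3 highest held 54 (27.8%), against 3.73% of all genes. The pattern was read from the same values that chose the 194 genes, so these shares are descriptions.

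**Figure D2:**
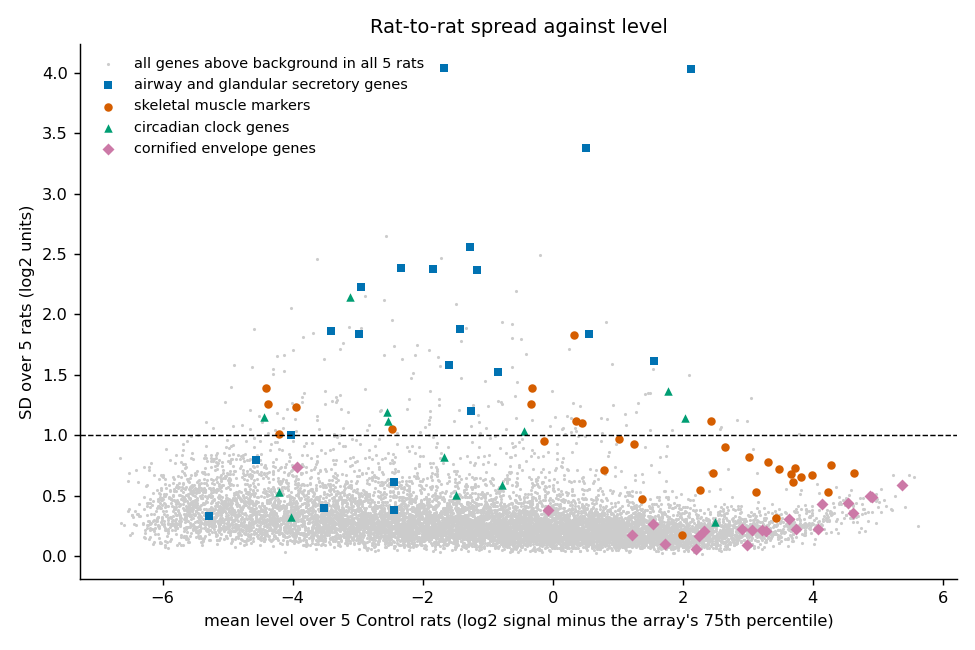
SD over the 5 Control rats (vertical axis, log2 units) against mean level (horizontal axis, log2 signal minus the array's 75th percentile) for 11109 genes in grey, with 4 gene lists in colour; the dashed line is an SD of 1. Cornified envelope genes lie low in the cloud, whereas 11 of 33 skeletal muscle markers and 7 of 13 clock genes lie above the line, as do 194 genes in all. Of airway and glandular secretory genes, 16 of 22 lie above it. That list was drawn up after its spread had been seen, so nothing is read from its count.

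The largest differences were in genes of secretory epithelium, most of which were lowest in rat 2 and highest in rat 3. Bpifa1, a secreted protein of airway and gland surfaces, stood at 3.32 in rat 1, −4.95 in rat 2, 5.04 in rat 3, 3.06 in rat 4 and 4.16 in rat 5. Rat 2 was 8.0 log2 units below the next rat. Scgb3a1, a secretoglobin of airway and gland cells, stood at 0.67, −5.36, 2.54, 2.08 and 2.62, and rat 2 was again far below the other 4, of which rat 5 was the highest. Bpifb1 had the largest SD of all genes (4.04): it was at 1.08, −6.17, 3.83, −3.71 and −3.39, so that only rats 1 and 3 were high.

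The simple epithelial keratins also had their extremes in rats 2 and 3. Krt18 stood at −2.41, −5.59, 0.70, −1.32 and −0.60 in rats 1 to 5, Krt8 at −2.59, −6.03, −1.23, −2.98 and −2.03, and Krt7 at −3.02, −6.57, −1.66, −3.09 and −2.67. Rat 2 was lowest and rat 3 highest in each. Krt19 was above background in every rat except rat 2, as were the trefoil peptide Tff2 and Agr2, which folds mucins. Wfdc2 (−1.06 in rat 2, 3.23 in rat 3), Tspan1 (−2.48 and 2.42) and Scgb1a1 (−3.21 and 0.39) had the same extremes. Epcam, an adhesion molecule found in many epithelia, stayed between 2.43 and 2.76 in all 5 rats.

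A list of 34 airway and gland genes was drawn up after this pattern had been seen, so its counts describe the chosen genes and nothing is read from them. Of these genes, 22 of 31 on the array were above background in all rats. Rat 2 was the lowest in 19 of the 22 and at least 1 log2 unit below all other rats in 16. Over all genes, 1.03% had rat 2 that far apart in either direction. Rat 3 was the highest in 17 and at least 1 unit above the others in 10 (0.567% of all genes in either direction). The mean deviation of the list from each gene's own mean was 0.02, −2.78, 1.83, 0.17 and 0.75 in rats 1 to 5. In the list of columnar and glandular genes, some of which are in both lists, rat 2 was lowest in 9 of 15 and rat 3 highest in 11. Over all 11109 genes, rat 2 was lowest in 1948 and rat 3 highest in 2652.

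The median SD of the airway and gland list was 1.84 with all rats and 0.84 without rat 2, and 16 members had an SD above 1 with all rats and 8 without rat 2. Ciliated cell genes did not share the pattern, with deviations of −0.14, −0.12, 0.15, −0.02 and 0.13, and the ciliogenesis factor Foxj1 was above background in 1 rat. Stomach genes were dim: Pgc was at −5.37 ± 0.81 and Gkn2 above background in none. Of 11 thyroid genes, 6 were above background in all rats, and they were dim apart from Foxe1 (1.27 ± 0.22) and Duox2, which was at −0.42, −1.09, 1.96, −0.00 and 0.63.

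Many other genes among the 20 most variable were lowest in rat 2 and highest in rat 3. Prss30, a serine protease, ran from −5.40 in rat 2 to 1.52 in rat 3, the complement gene C3 from −4.36 to 2.06, Bpifb2 from −4.67 to 1.73, Lrrc26 from −6.24 to 0.02, Gsg1 from −5.88 to 0.61 and S100g from −6.20 to −0.57. Cxcl17, a chemokine of mucosal epithelia, ran from −6.45 to −0.35, Myoc from −5.84 to −0.95 and Apod from −4.02 to 0.85. Amy1, an amylase gene, was highest in rat 3 (−0.55) and low in rats 2, 4 and 5 (−5.24, −5.15 and −5.45). Chia was at −1.75 and −0.38 in rats 1 and 3 and −5.90, −5.73 and −4.37 in rats 2, 4 and 5.

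Some cartilage and mast cell protease genes also had their extremes in rats 2 and 3. Of 9 cartilage genes above background in all rats, rat 2 was the lowest in 5 and rat 1 in 4, and rat 3 was the highest in 8. Over all 11109 genes, rat 2 was the lowest in 1948, rat 1 in 4090, and rat 3 the highest in 2652. Col9a2, a collagen of cartilage, stood at −2.66, −6.95, 0.10, −1.87 and −1.43, and Comp at −0.93, −2.94, 1.37, −0.27 and 0.75. Of 16 cartilage genes on the array, a list also drawn up after the values were seen, 6 were above background in every rat except rat 2, among them Col2a1 and Acan, which were highest in rat 3 (−0.70 and −1.49). Over all 15436 genes, 105 were above background in every rat except rat 2. The mast cell protease Mcpt1 stood at −1.90, −3.59, 1.99, 0.56 and 0.16. Across the Mcpt family 5 of 6 genes detected in all rats had an SD above 1 (1.75% of all genes), whereas Cma1 and Tpsab1, general mast cell markers, had levels of −0.43 ± 0.24 and −0.56 ± 0.25. Over all 11 mast cell markers detected in all rats the median SD was 0.42, rat 3 was the highest in 7 (deviation 0.52), and the lowest was rat 5 in 5 and rat 2 in 2. Rat 5 was the lowest in 1687 of all 11109 genes. What part other tissue in a sample had in these differences was not tested.

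**Figure D3:**
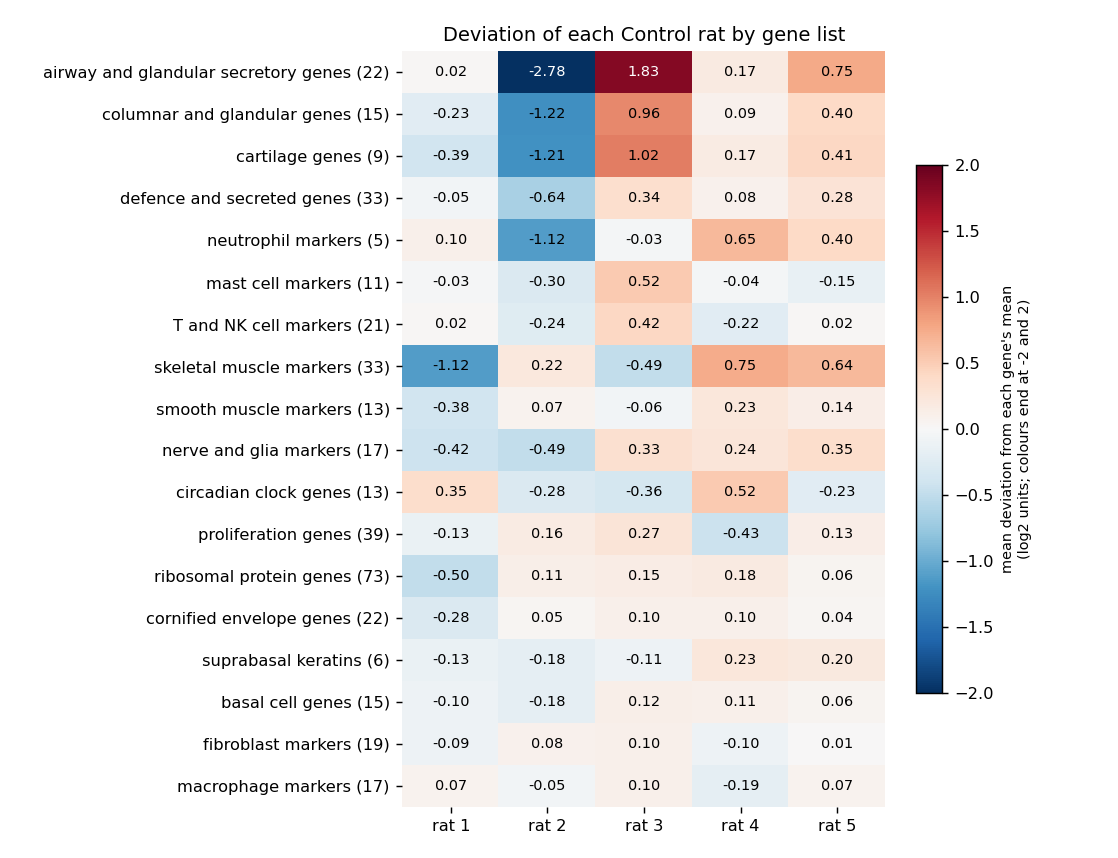
Mean deviation of each Control rat (columns) from each gene's mean over the 5 rats, in log2 units, averaged over the members of 18 gene lists (rows, number of genes above background in all rats in brackets); red is higher and blue lower. Rat 2 is lowest and rat 3 highest in the airway and glandular (−2.78 and 1.83), columnar (−1.22 and 0.96) and cartilage (−1.21 and 1.02) lists, rat 1 is lowest in skeletal muscle markers (−1.12), and rat 4 is lowest in proliferation genes (−0.43). The airway and glandular list and the cartilage list were drawn up after the values were seen, so their rows describe chosen genes.

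Skeletal muscle genes were detected in every rat, many of them bright, and most were lowest in rat 1. Of 34 markers, 33 were above background in all rats, and 17 were among the brightest 10% of genes. Myh8, a perinatal myosin heavy chain, stood at 3.45, 5.03, 4.64, 5.16 and 4.87 in rats 1 to 5 (rank 43), and the creatine kinase gene Ckm at 3.16, 4.63, 3.87, 4.98 and 4.76 (rank 81). Myl11 (4.24 ± 0.53), Tnni2 (3.99 ± 0.67) and Tnnt3 (3.82 ± 0.66), fast fibre genes, were next. Rat 1 was the lowest in 30 of the 33 genes and rat 4 the highest in 21. Over all 11109 genes, rat 1 was the lowest in 4090 and rat 4 the highest in 1818.

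The range differed from gene to gene. Tnni1, the slow fibre troponin I, stood at −2.32, 0.40, −0.48, 2.18 and 1.84, a range of 22.6-fold. Actn3, of fast fibres, stood at 0.65, 3.23, 2.04, 3.26 and 3.03, and Myod1, the myogenic regulator, at −6.66, −3.17, −4.73, −3.95 and −3.50. Pvalb, the calcium buffer of fast fibres, differed little (2.0 ± 0.17). Pax7, the satellite cell factor, was above background in none of the rats. An SD above 1 was found in 11 of the 33 (1.75% of all genes). Rat 1 was at least 1 unit below the others in 8 of 33 (2.11% of all genes in either direction).

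The deviation of the muscle list was −1.12, 0.22, −0.49, 0.75 and 0.64 in rats 1 to 5, and −0.96, 0.21, −0.51, 0.66 and 0.60 after quantile normalization. The median SD was 0.78 with all rats and 0.55 without rat 1, and 5 members in place of 11 had an SD above 1 without rat 1. Rats 1 and 3 were both below the other 3, rat 1 by more. Smooth muscle markers were also lowest in rat 1 in 12 of 13 cases, where 4090 of all 11109 genes were. Their deviation in rat 1 was −0.38, and −0.09 after quantile normalization. What part the amount of muscle in each sample had in this was not tested.

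**Figure D4:**
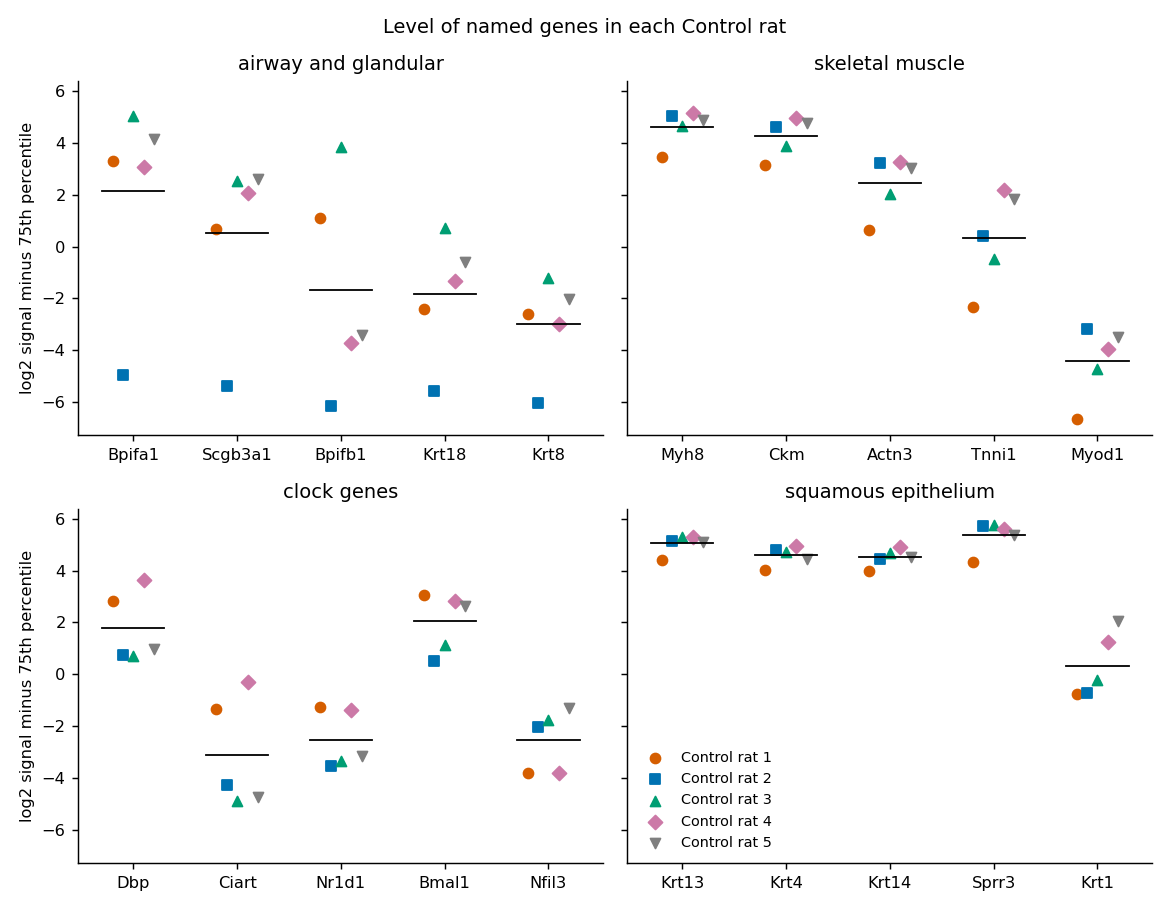
Level (vertical axis, log2 signal minus the array's 75th percentile) of 20 genes in each Control rat; each symbol is 1 rat and the line is the mean. Rat 2 lies far below in the airway and glandular genes (Bpifa1 −4.95), rat 1 is lowest in the muscle genes (Tnni1 −2.32), rats 1 and 4 separate from rats 2, 3 and 5 in Dbp, Ciart, Nr1d1 and Nfil3, and the squamous genes lie close together except Krt1 (−0.78 to 2.07).

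Genes of the circadian clock had a median SD of 1.03, the highest of the lists after airway and gland genes, which were chosen for their pattern. Of the 13 clock genes above background in all rats, 7 had an SD above 1, against 1.75% of all genes. The clock list, too, was chosen with earlier results of these data known, so its count is a description. The clock is a feedback loop in which BMAL1 with CLOCK or NPAS2 activates Per, Cry, Nr1d1, Dbp, Tef and Ciart through E-box elements, the PER and CRY proteins then repress it, and NR1D1 represses Bmal1, Npas2 and Nfil3. Dbp, an output factor, stood at 2.83, 0.73, 0.71, 3.64 and 0.98 in rats 1 to 5. Ciart, a repressor of the loop, stood at −1.33, −4.28, −4.91, −0.30 and −4.74. In both genes rats 1 and 4 were high and rats 2, 3 and 5 low, with no overlap.

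Some other targets of the activator split the rats the same way. Nr1d1 stood at −1.27, −3.53, −3.35, −1.39 and −3.17, Tef at 0.45, −1.02, −1.23, 0.89 and −1.30, and Per2 at −3.46, −4.99, −5.25, −2.96 and −5.51. Rats 1 and 4 were above the others in each of these 3 genes. Nfil3, which opposes Dbp, was reversed, at −3.82, −2.02, −1.78, −3.82 and −1.29, and Npas2 (−1.96, −1.13, −1.13, −2.98 and −1.14) and Cry1 (−2.07, −0.81, −1.33, −1.89 and −1.31) were lower in rats 1 and 4, although Cry1 is itself a target of the activator. Cry2 stood at −4.53, −4.07, −4.02, −3.72 and −3.75, with rat 1 lowest and rat 4 highest.

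Bmal1 did not follow this split: it stood at 3.07, 0.52, 1.11, 2.85 and 2.65, so that rat 5 joined rats 1 and 4. Per3 was the brightest clock gene and differed little (2.51 ± 0.28), and Clock was dim in all rats (−4.21 ± 0.53). Per1 and Nr1d2 were above background in 1 rat each. Rat 4 was at least 1 unit beyond the other rats in 2 of the 13 genes (0.117% of all genes in either direction). The hour at which each animal was killed is not given in the sources used here, and its part in these differences was not tested.

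The starts of these genes carry some of the elements named above. RefSeq promoter windows (assembly GRCr8) were found for 14 of the 15 clock genes on the array, 16 windows in all, and the 250 bases before each start were searched on both strands for the E-box CACGTG, the D-box TTATGNAA and the element TAGGTCA that NR1D1 and ROR factors bind. At least 1 match was found in 6 genes. Of the 16 windows, 4 held CACGTG, 1 TTATGNAA and 1 TAGGTCA. None was found for Dbp, Nfil3 and Npas2, which also separated rats 1 and 4 from the rest, or in the other window of Nr1d1. Over all 33469 windows, 5.59% held CACGTG, 3.28% TTATGNAA and 2.26% TAGGTCA. A match is a description of the sequence, and the absence of one says only that these letters are not in this window. Shown are 5 matched stretches, 4 of genes that separated rats 1 and 4 from the rest and that of Bmal1, which did not. The sixth matched gene, Bhlhe40, with 1 E-box, is not shown. Its levels were 0.04, −0.68, −1.25, −0.57 and −1.45, so rats 1 and 4 were the highest here too, rat 4 only just above rat 2. The stretches are written 5′ to 3′ on the gene's strand, with the motif in capitals: Ciart at chr2:186112251-186112350 (minus strand, 3 E-boxes), Nr1d1 at chr10:84229603-84229682 (minus), Tef at chr7:115206592-115206671 (plus), Per2 at chr9:99497142-99497221 (minus, D-box) and Bmal1 at chr1:176766248-176766327 (plus, TAGGTCA).
Ciart: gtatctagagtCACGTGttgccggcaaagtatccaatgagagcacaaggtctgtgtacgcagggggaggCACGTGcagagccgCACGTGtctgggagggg
Nr1d1: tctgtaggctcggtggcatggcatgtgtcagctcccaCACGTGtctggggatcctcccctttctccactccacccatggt
Tef: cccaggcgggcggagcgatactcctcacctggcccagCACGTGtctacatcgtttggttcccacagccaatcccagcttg
Per2: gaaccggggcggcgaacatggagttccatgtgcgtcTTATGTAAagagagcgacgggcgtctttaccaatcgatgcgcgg
Bmal1: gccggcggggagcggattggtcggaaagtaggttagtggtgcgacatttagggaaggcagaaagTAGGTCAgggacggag

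Proliferation genes were lowest in rat 4. Of 40 on the array, 39 were above background in all rats, at a median level of −0.74, and rat 4 was the lowest in 26 of them, where it was the lowest in 1554 of all 11109 genes. Mki67, the marker of cycling cells, stood at 1.02, 2.02, 1.91, 0.55 and 1.45 in rats 1 to 5, Ccna2 at −0.57, 0.83, 0.86, −0.71 and 0.25, and Cdk1 at 1.32, 1.89, 2.10, 0.90 and 1.86. Rats 1 and 4 were the lowest in each and rats 2 and 3 the highest. The deviation of the list was −0.13, 0.16, 0.27, −0.43 and 0.13, and no member reached an SD above 1 (0 of 39, against 1.75% of all genes). Ccnd2 (2.85 ± 0.30), Ccnd1 (1.82 ± 0.17) and Pcna (1.75 ± 0.18) were brightest, and Cdkn2a had the widest spread (SD 0.96). Cenpt (−3.22 in rat 4, −2.03 to −1.64 in the others) and Arhgap11a (−4.53 against −3.21 to −2.62) were among the 5 genes in which rat 4 stood farthest apart, as were Ceacam16, Lmod2 and Rpl39l1.

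Genes of inflammation varied in different ways. S100a9, a calcium-binding protein of neutrophils and stressed keratinocytes, stood at −1.20, −4.97, −1.39, 0.51 and −0.38, and S100a8 at −0.59, −3.50, −1.07, 0.09 and −0.12. Rat 2 was far below the others in both. The neutrophil chemokines Cxcl2 (−4.10, −5.41, −1.17, −3.82 and −1.17) and Cxcl1 (−5.16, −6.33, −2.43, −4.56 and −2.69) were instead high in rats 3 and 5. Il1b was highest in rat 3 (−1.77 against −3.89 to −2.80), and the eosinophil chemokine Ccl11 highest in rat 4 (−0.86) and lowest in rat 2 (−6.44).

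Rat 1, alone on its slide, read lower than the others at both ends of the signal range. Its median level over the 50 brightest genes was 4.18, against 4.89 to 5.11 in rats 2 to 5. Relative to the mean of the other 4 rats, rat 1 was lower by a median of 0.36 log2 units in the brightest 10% of genes and by 0.32 in the dimmest 10%, and within 0.03 of them in the 3rd to 7th class. No other rat departed by more than 0.13 in any class. Fabp5 (4.32 in rat 1, 5.60 to 5.93 in the others), Ada (4.54, 5.33 to 5.48) and Rpl41 (4.09, 5.20 to 5.66) are examples. Rat 1 was the lowest in 68 of 73 ribosomal protein genes, and in 4090 of all 11109 genes. After quantile normalization, which forces 1 distribution on all arrays, the deviation of ribosomal protein genes in rat 1 was 0.01 in place of −0.50.

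**Figure D5:**
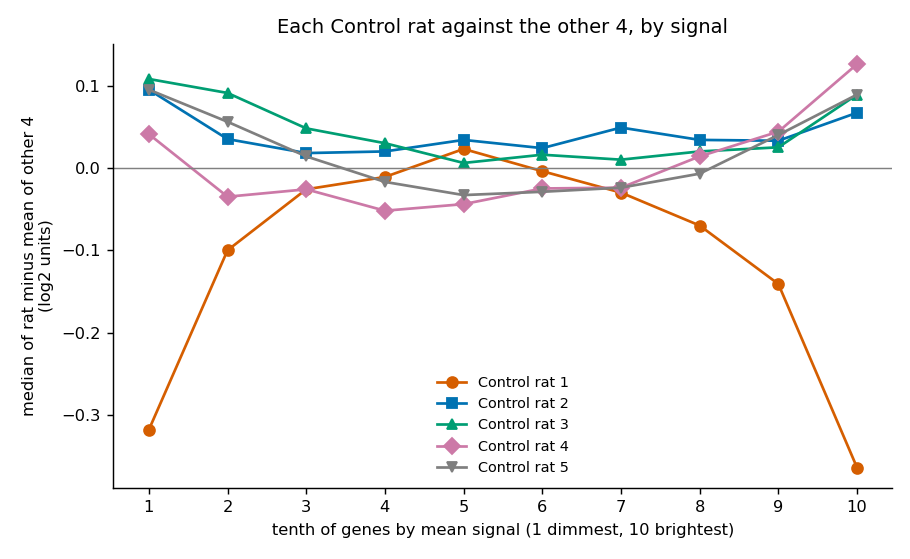
Median difference of each Control rat from the mean of the other 4 (vertical axis, log2 units) in 10 equal classes of genes by mean signal (horizontal axis, 1 dimmest to 10 brightest); each line is 1 rat. Rat 1 bends down at both ends (−0.32 in class 1 and −0.36 in class 10), while rats 2 to 5 stay between −0.05 and 0.13.

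The number of genes apart from the other rats differed between rats, and the order depended on the scaling. Rat 1 lay at least 1 log2 unit beyond the other 4 in 234 genes (2.11%), 187 of them lower and 47 higher. Rat 2 did so in 114 (1.03%), rat 3 in 63 (0.567%), rat 4 in 13 (0.117%) and rat 5 in 2 (0.018%). The directions differed: 105 of the 114 of rat 2 were lower and 58 of the 63 of rat 3 were higher. The count of rat 1 was 122 after quantile normalization (73 lower, 49 higher) and 74 with normexp background correction (51 lower, 23 higher), so it depended on the scaling. With normexp rat 2 had more such genes (98) than rat 1, and after quantile normalization rat 2 had 114. Of the 234 genes, 112 were also apart after quantile normalization and 66 with normexp. Normexp also lowered the share of genes below the other rats from 92.1% to 76.5% for rat 2 and from 61.5% to 50% for rat 4, whose counts with normexp were 98 and 6. Quantile normalization brought the share of rat 4 to 50%, and gave rat 5 1 gene higher and 2 lower.

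The genes in which rat 1 stood farthest apart were all lower. Plpp1, a lipid phosphatase, stood at −1.92 in rat 1 and between 1.42 and 1.82 in the others, Vtcn1 at −6.80 (−3.89 to −2.90), and the muscle gene Ppp1r27 at −3.71 (−1.29 to 0.73). The developmental factors Six4 (−5.97, against −3.73 to −3.27) and Tbx3 (−5.37, against −3.19 to −2.43) followed. In rat 5, 1 bright gene stood far apart: Rpp21, a subunit of ribonuclease P, at −1.22 where rats 1 to 4 had 2.04 to 2.37, from 1 probe on 2 spots. The others farthest apart were Rpl39l1 (−2.32 in rat 5 and −6.24 in rat 4), Myh6, Phkb and Pla2g3, all dim. In rat 3 the 5 farthest were Amy1, Bpifb1, Bpifb2, Smgc and Mcpt10 (0.33, against −4.27 to −1.44).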

How the data were processed

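The deposited scanner files of the 5 Control rats hold fluorescence intensity per spot as the authors extracted it, with Feature Extraction 11.5.1.1 per the file headers and 10.7 per the submitters' processing notes. Processed signals are already background-subtracted by that software. The deposited value table holds log2 values of the same arrays (r = 1 over 30356 probes, with column medians from −3.17 to −3.05), each column centred so that its 75th percentile is near 0; nothing in the sources used here states its centring. TRIzol extraction and linear amplification are per the labels. The array design is annotated on rn4.

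Control spots and outlier flags were dropped, and spots of a probe were averaged. The 58717 non-control spots held 30367 probes; 18347 were matched by RefSeq accession to 1 gene symbol (table of assembly GRCr8, used for names) and 12020 stayed unnamed. The level is the log2 processed signal minus the 75th percentile over non-control spots of the array. A probe counted as above background on an array where at least 0.5 of its spots were flagged well above background. A gene took its brightest probe above background in all 5 rats, which 11109 genes had; 11117 were above background in every rat by any of their probes. Number of arrays limits the precision. With 1 group there is no test between groups, and SDs measure the spread between these 5 samples only.

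The members and the 40 gene lists were chosen with earlier results of these data known, and 4 lists (airway and glandular, ciliated cell, cartilage, thyroid) were added after the values were seen. Genes named were the 25 brightest, up to 5 brightest members and the most variable member of each list, any defining marker not above background, the 20 most variable genes, the 5 farthest apart in each rat, and a short list of squamous, carcinogen and reference genes. Genes with the smallest SDs, genes with several neighbours in a list (such as the further clock, muscle, keratin, chemokine and cartilage genes) and Ttpa, Cyp1a1, Pvalb, Pgc and Itga6 were chosen after their values were seen. Alternatives were quantile normalization, normexp background correction (offset 50, limma 3.58.1 in R 4.3.3, on median spot signals since the files hold no mean signals), the value table, other probe and detection rules, no filter, and leaving out each rat. Other steps used Python 3.11.15 with pandas 2.3.3 and numpy 2.4.6. 1 listed gene is not reported here.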

Additional observations from a re-analysis of the deposited data

Results flagged for a closer look

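In a group of 5 rats, Dixon's criterion (0.71 of the range) marks a value that lies far from the other 4, and chance marks about 1 in 20 groups. The genes named in the text were partly chosen for a large spread or a distant rat, so their count is not to be read against that share. Of 208 genes named in the text, 34 were marked, 27 of them because rat 1 was lowest, whose array was on a slide of its own. These were, with the level in rat 1, the bright genes Ada (4.54), Cnfn (3.99), Cst6 (3.56), Ctsd (3.64), Fabp5 (4.32), Gpx4 (2.93), Ifi27 (3.33), Hopx (3.32), Krt13 (4.42), Krt15 (4.35), Krt23 (2.56), Lce1f (3.15), Lce1m (3.69), Lypd3 (3.51), S100a11 (3.64), Pitx1 (3.38), Prdx2 (3.74), Rpl41 (4.09), Spag7 (4.72), Sparc (3.61), Sprr3 (4.35), Tp63 (3.64) and Txn1 (3.64). Dimmer genes marked in the same way were Plpp1 (−1.92), Six4 (−5.97), Tbx3 (−5.37) and Vtcn1 (−6.80). Rat 2 was lowest in Bpifa1 (−4.95), Scgb3a1 (−5.36) and Ccnd1 (1.52), rat 4 in Cenpt (−3.22), and rat 5 in Rpp21 (−1.22) and Phkb (−6.11). Rat 5 was highest in C1qc (3.22), whose SD was 0.09.

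Of 43 gene lists, 5 were marked, with rat 1 lowest in mean deviation: ribosomal protein genes (−0.50), germ cell genes (−0.63, from 4 genes), housekeeping genes (−0.33), cornified envelope genes (−0.28) and immediate early and stress genes (−0.18). Of 6 values per array, 2 were marked in rat 1: the median level of the 50 brightest genes was 4.18, and rat 1 was the lowest of the 5 rats in 4090 genes, against 1554 to 1948 in the others. Over all 11109 genes, 792 (7.13%) were marked and 550 of these by rat 1. Slide and rat cannot be told apart here.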

How the results depend on the processing

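No paired analysis was possible because 1 group was described and no test between groups was made. The count detected in all rats was 20302 over probes in place of genes, and 11138 to 11231 when each rat was left out in turn. Without a filter on dim genes, 570 genes had an SD above 1, and the genes apart by 1 log2 unit numbered 615 in rat 1, 267 in rat 2, 183 in rat 3, 97 in rat 4 and 86 in rat 5. With normexp these counts were 74 in rat 1, 39 in rat 3 and 6 in rat 4, with quantile normalization 122 in rat 1, and with the deposited values 1 in rat 5. When each rat was left out in turn, the median SD ran from 0.209 to 0.270, the genes with an SD above 1 from 146 to 230, and the ratio of SD between rats to SD between spots from 1.55 to 1.89. Of 286 gene levels, quantile normalization moved 0 by more than the SD between rats, normexp 43, the mean of a gene's probes 27 and the deposited values, which are centred differently, 95. Of 286 percentile ranks, the mean of a gene's probes moved 69, normexp 55 and quantile normalization 0. Of 43 list median SDs, normexp moved 2, and the other settings that kept all rats moved 0. The precision is limited by 5 arrays and by 1 rat alone on its slide, and levels near background are the least certain.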

Other observations

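Several gene groups not described above were also measured in the 5 rats. All 30 glycolysis and hypoxia genes on the array were above background in every rat, at a median level of 1.21, and 10 were among the brightest 10% of genes, led after Gapdh by Aldoa (4.26 ± 0.53) and Eno1 (3.43 ± 0.29). The lactate exporter Slc16a3 varied most, with an SD of 1.0. Of 31 interferon response genes, 29 were above background in all rats at a median level of −1.37, and the brightest was Ifi27 (3.73 ± 0.23). Of 20 glucocorticoid response genes, 18 were above background in all rats, and the kinase gene Sgk1 varied most (SD 0.95). Among 22 homeobox genes of the Hox clusters, 11 were above background in all rats.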
